A study of Mus musculus with 63 samples.

Results

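Transcript levels of 10 genes for RNA granule proteins and translational repressors were examined: the fragile X family (*Fmr1*, *Fxr1*, *Fxr2*), the cytoplasmic polyadenylation element binding proteins (*Cpeb1*, *Cpeb2*, *Cpeb3*, *Cpeb4*), *Pum2* and the Staufen genes (*Stau1*, *Stau2*). They were chosen by name as neuronal RNA-binding proteins, with earlier results of these data known, and all 10 were found among the 55291 gene symbols counted. The 63 libraries came from organotypic entorhino-hippocampal tissue cultures of mice, prepared at postnatal days 3 to 5 and matured for at least 18 days in vitro. Cultures were wildtype (C57BL/6J, Synpo+/+) or synaptopodin-deficient (B6.129-Synpo tm1Mndl/Dllr, Synpo-/-), of either sex. They were either non-lesioned controls or had undergone entorhinal cortex lesion (ECL), a scalpel transection that partially denervates the dentate gyrus (DG) and area CA3. In the regional experiment each of 39 libraries was made from 1 isolated region of 1 culture: Synpo+/+ CA3 control (n = 2), Synpo+/+ CA3 ECL (n = 3), Synpo+/+ DG control (n = 4), Synpo+/+ DG ECL (n = 7), Synpo-/- CA3 control (n = 6), Synpo-/- CA3 ECL (n = 6), Synpo-/- DG control (n = 7) and Synpo-/- DG ECL (n = 4). In the other 24 libraries, lysates pooled from 6 cultures were split into an input and a synaptopodin co-immunoprecipitate (Synpo-coIP): Synpo+/+ control and Synpo+/+ ECL (n = 5 lysates each) and Synpo-/- (n = 2 lysates, with no lesion given in the labels). Per the paper, the regional ECL libraries were made 3 days after the lesion, and no time is stated for the lesioned lysates.

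These proteins decide where and when an mRNA is translated. FMRP, the *Fmr1* product lost in fragile X syndrome, and its paralogues FXR1 and FXR2 bind mRNAs on polyribosomes and in dendritic granules; CPEB proteins bind U-rich elements in 3′ untranslated regions (3′UTRs) and switch translation off or on with the length of the poly(A) tail; Pumilio 2 recruits deadenylases to its target mRNAs. Staufen proteins bind double-stranded RNA, with Staufen 2 enriched in neurons and known for dendritic transport and Staufen 1 known for a decay pathway that uses Upf1. What was measured here is the mRNA that encodes each protein, not the mRNAs it binds.

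Libraries held 11601154 to 53682143 counted reads. Reads of *Synpo*, whose locus is mutated in the Synpo-/- strain, showed no loss under that label: regional Synpo-/- libraries held 30.5 to 69.3 CPM (counts scaled to library size with TMM factors), against 19.1 to 38.4 CPM in Synpo+/+ regional libraries. *Synpo* was called higher in Synpo-/- than in Synpo+/+ DG controls (log2 fold change 1.17, adjusted p = 0.000517; edgeR's quasi-likelihood test). In the Synpo-coIP its reads were enriched over input in Synpo+/+ controls (0.47, adjusted p = 0.0107) and after ECL (0.47, adjusted p = 0.00134), but did not pass in Synpo-/- lysates (-0.03, adjusted p = 0.896). The difference in enrichment between Synpo+/+ control and Synpo-/- lysates did not pass the same test either (0.45, SE 0.25, adjusted p = 0.761). Dentate granule cell markers were higher in DG than in CA3 libraries apart from 1 DG library, and 1 CA3 library stood above the rest of its group. Replicate 5 of Synpo+/+ DG ECL held *Prox1*, a granule cell transcription factor, at 15.5 CPM, whereas the other 6 libraries of its group held 170 to 217 CPM. Its summed level of 5 CA3 pyramidal cell markers was 375 CPM, against 107 to 148 CPM in the other 6. This library goes against its label. Replicate 1 of Synpo-/- CA3 control held *Prox1* at 44.0 CPM, against 15.6 to 18.7 CPM in the other 5, and 5 granule cell markers summed to 127 CPM, against 40.9 to 58.6 CPM. The calls and the fold changes described in comparisons that use either library are also given without it. All of the 42 marker genes of 6 cell types had counts in every library.

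Levels between genes were compared as CPM per kilobase of annotated exon. In Synpo+/+ DG control cultures *Pum2* was the most abundant, at 31.0 CPM per kb, followed by *Cpeb4* at 20.4, *Stau2* at 19.4, *Fxr1* at 12.6, *Fmr1* at 11.3 and *Cpeb1* at 10.96 CPM per kb. *Cpeb3* at 6.97, *Cpeb2* at 5.88 and *Stau1* at 5.76 CPM per kb were lower, and *Fxr2* was the lowest at 1.80 CPM per kb. Neighbours in this order differed by less than their spread for *Cpeb4* and *Stau2*, for *Fmr1* and *Cpeb1*, and for *Cpeb2* and *Stau1*. *Pum2* ranked first and *Fxr2* last in all 8 regional groups. The order differed in the whole-culture input of Synpo+/+ controls, where *Cpeb4* had 4.62 CPM per kb and *Stau1* 10.4 CPM per kb. The regional and coIP experiments were prepared and scaled separately, and their levels are set side by side without a test.

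**Figure D1:**
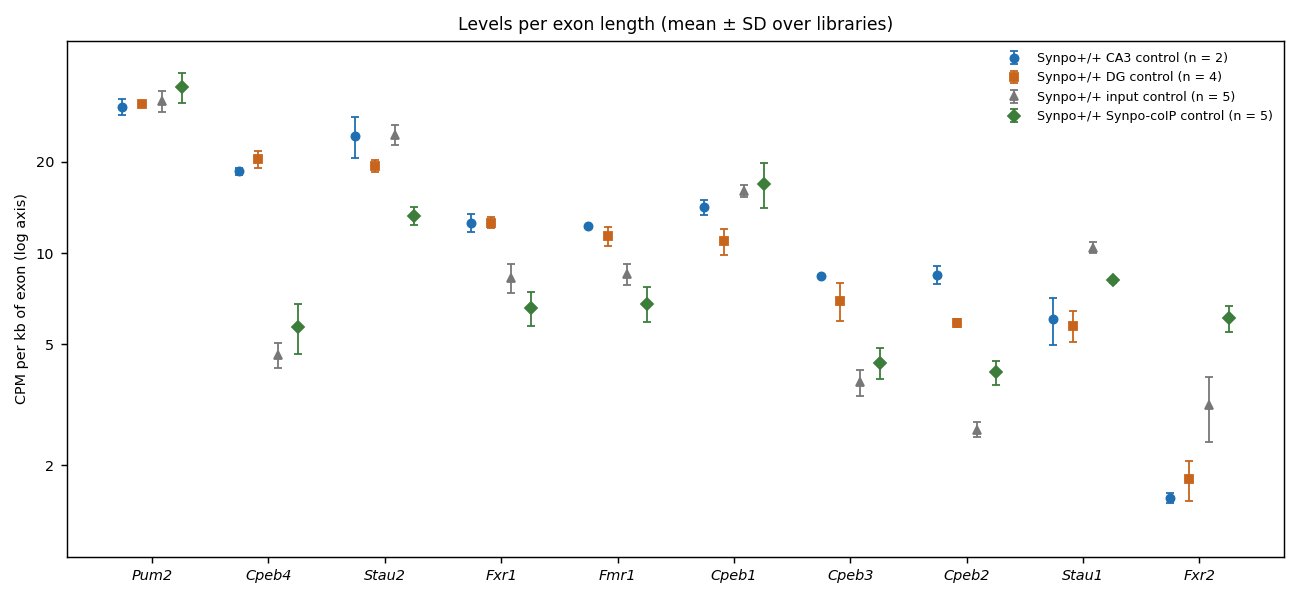
Levels of the 10 genes per exon length (CPM per kb, log axis) in 4 groups of Synpo+/+ control libraries; points are means and bars SD over libraries. *Pum2* lies highest and *Fxr2* lowest in CA3 and DG, and *Cpeb4* lies lower in input and Synpo-coIP than in either region.

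Since the members include an RNA-binding repressor family, their own 3′UTRs were searched for the Pumilio motif TGTANATA, which Pum2 protein is known to bind, and for the polyadenylation elements TTTTAT and TTTTAAT, which CPEB1 is known to bind. None of these motifs contains another. The last 1000 bases of the longest annotated 3′UTR were used, a length reached by 9 members (all but *Fxr2*, whose 598 bases held no match) and by 10240 protein-coding genes. On the transcript strand TGTANATA was in the windows of 3 members (*Fmr1*, *Cpeb1*, *Cpeb3*) and of 21.9% of all windows; TTTTAT was in 7 members and 59.2% of windows; TTTTAAT was in 4 members and 27.5% of windows. On the opposite strand the shares of all windows were 13.9%, 61.9% and 26.0%. Over whole 3′UTRs, *Fmr1* and *Pum2* each held 2 Pumilio motifs, and *Cpeb2* held 20 TTTTAT elements in 3778 bases. The sites of *Fmr1*, *Cpeb1*, *Cpeb3* and *Pum2* are printed because they show that the message of Pumilio 2 and those of other repressors carry these letters. Capitals mark the motif, all are in 3′UTR exons read 5′ to 3′ on the transcript strand, and a match is a description of the letters, not of binding.
Fmr1, GRCm38 chrX:68717288-68717317, plus strand: gtttaaaatacTGTAGATAattaaccaagg
Fmr1, GRCm38 chrX:68717349-68717378, plus strand: gcaatattctcTGTACATAttagcgacaac
Cpeb1, GRCm38 chr7:81347543-81347572, minus strand: tgagcagctgcTGTATATAgttttaaatgg
Cpeb3, GRCm38 chr19:37022117-37022146, minus strand: cccttttgtttTGTAAATAaatgtgccccc
Pum2, GRCm38 chr12:8750154-8750183, plus strand: gtttatagagaTGTATATAgaattatagtt
Pum2, GRCm38 chr12:8750407-8750436, plus strand: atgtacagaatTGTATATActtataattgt

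The first question was which of these messages were enriched with synaptopodin, by comparing Synpo-coIP with the input of the same lysates. In Synpo+/+ controls *Fxr2*, *Cpeb2* and *Cpeb4* were higher in the Synpo-coIP and *Stau2*, *Stau1*, *Fmr1* and *Fxr1* were lower, whereas *Cpeb1*, *Cpeb3* and *Pum2* did not pass the test. Called means an adjusted p under 0.05 over all genes tested (edgeR's quasi-likelihood test, Benjamini-Hochberg). The share called was 7 of 10 members, where 55% of all 18222 genes tested were called. In the higher direction 3 members passed (29.6% of genes) and in the lower direction 4 (25.5% of genes). Their median log2 fold change was 0.13, and that of all genes 0.04. With a gene length trend removed the members' median was -0.02.

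The fragile X paralogues went in opposite directions. *Fxr2* had 9.05, 13.4, 11.8, 9.31 and 15.9 CPM in the input replicates 1 to 5 and 24.0, 19.1, 23.3, 23.2 and 25.1 CPM in their Synpo-coIPs. Every Synpo-coIP lay above every input, and the log2 fold change was 0.97 ± 0.15 (SE; adjusted p = 8.6e-05). *Fmr1* had 71.7, 72.0, 87.1, 74.2 and 77.4 CPM in the inputs and 67.1, 68.8, 64.1, 49.5 and 56.2 CPM in the Synpo-coIPs. These ranges did not overlap either, with the Synpo-coIPs lower (log2 fold change -0.31 ± 0.10, adjusted p = 0.0212). *Fxr1* had 64.6, 52.1, 53.3, 52.2 and 49.2 CPM in the inputs and 51.2, 46.5, 36.8, 41.6 and 40.4 CPM in the Synpo-coIPs, which overlapped in 1 library but were lower in each lysate (log2 fold change -0.31 ± 0.11, adjusted p = 0.0235). Without single libraries the adjusted p of *Fmr1* reached 0.0586 and that of *Fxr1* 0.0605.

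Both Staufen messages were lower in the Synpo-coIP. *Stau2* had 181, 164, 175, 154 and 153 CPM in the inputs and 92.0, 97.2, 81.6, 85.7 and 90.3 CPM in the Synpo-coIPs. The ratio of Synpo-coIP to input lay between 0.466 and 0.592 in the 5 lysates (log2 fold change -0.87 ± 0.08, adjusted p = 1.3e-06), and 9.69% of all genes tested had a lower log2 fold change. *Stau1* was lower to a smaller extent, with 62.8, 61.8, 65.2, 59.6 and 66.2 CPM in the inputs and 48.6, 48.5, 50.6, 50.4 and 48.9 CPM in the Synpo-coIPs (log2 fold change -0.34 ± 0.07, adjusted p = 0.00156). Neither gene's groups overlapped.

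Among the CPEB genes, *Cpeb2* differed most between the fractions. It had 20.7, 19.1, 19.5, 21.7 and 21.5 CPM in the inputs and 31.1, 35.1, 28.6, 29.4 and 33.9 CPM in the Synpo-coIPs, again without overlap (log2 fold change 0.64 ± 0.09, adjusted p = 4.2e-05). *Cpeb4* had 33.6, 29.7, 26.9, 30.4 and 26.7 CPM in the inputs and 34.6, 48.0, 34.3, 29.9 and 35.1 CPM in the Synpo-coIPs. Its groups overlapped and its call was lost in 10 of 18 alternatives, among them the fit without Synpo-coIP replicate 2 (log2 fold change 0.20, adjusted p = 0.1) and the removal of a gene length trend (adjusted p = 0.296). *Cpeb3* had a log2 fold change of 0.24 (adjusted p = 0.069), *Cpeb1* of 0.09 (adjusted p = 0.476) and *Pum2* of 0.17 (adjusted p = 0.134). *Pum2*, the most abundant of the 10, had 206 to 251 CPM in the inputs and 225 to 299 CPM in the Synpo-coIPs.

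**Figure D2:**
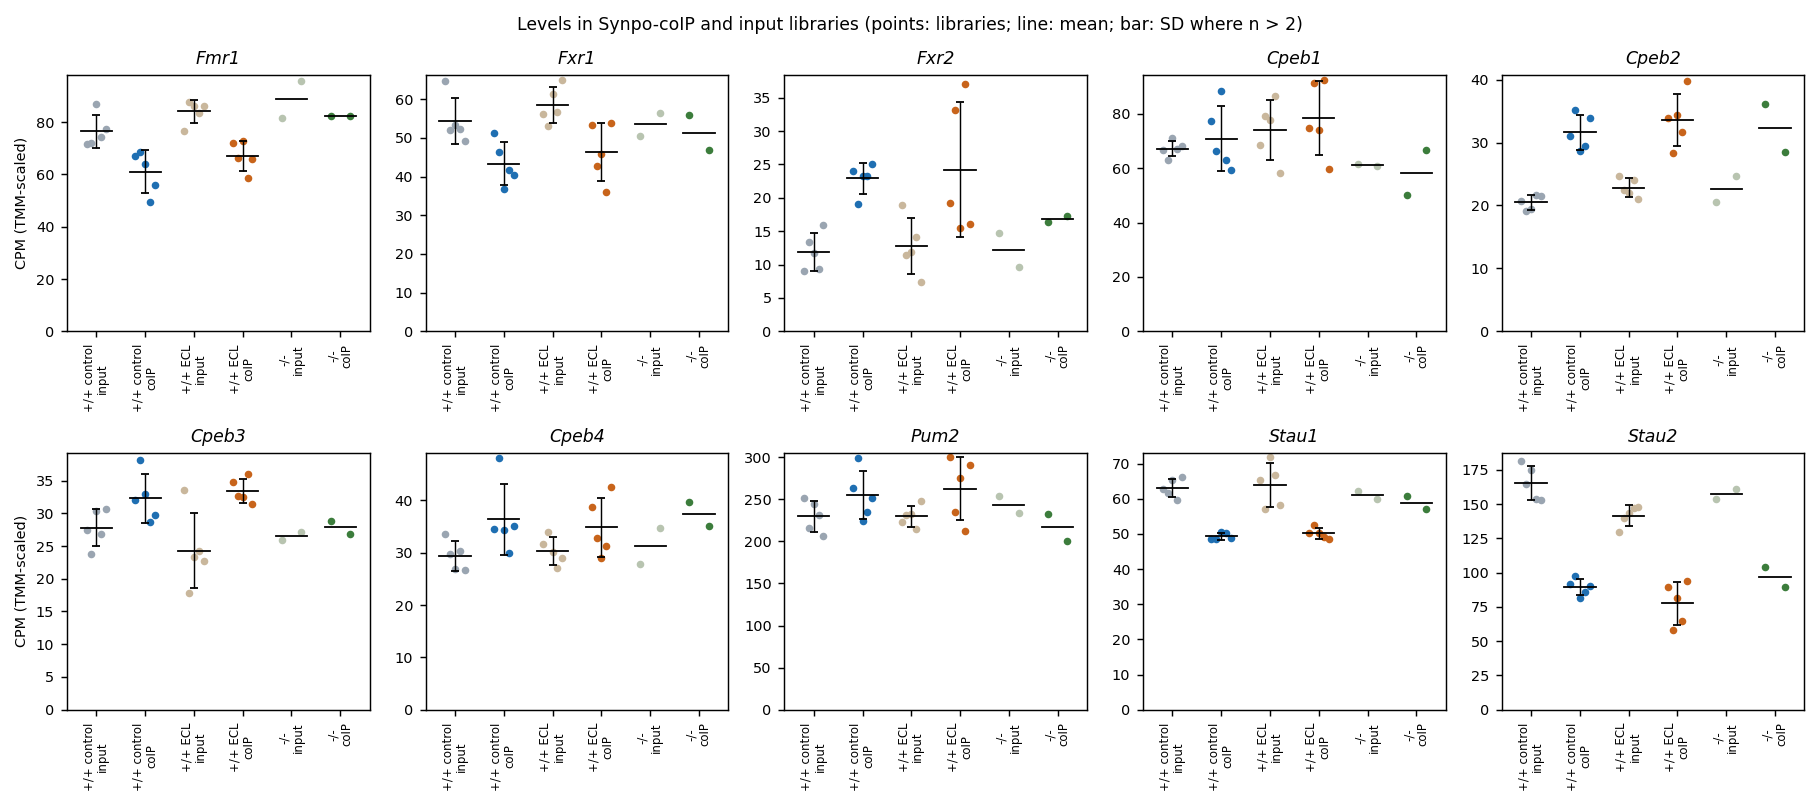
CPM of each gene in the 24 input and Synpo-coIP libraries, by genotype label and lesion; points are libraries, lines means and bars SD (where n is above 2). The 5 Synpo-coIP points of *Stau2* in Synpo+/+ controls lie between 81.6 and 97.2 CPM, below the 5 inputs at 153 to 181 CPM, while *Fxr2* and *Cpeb2* show the opposite order.

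In lysates of lesioned Synpo+/+ cultures 7 members were called, where 58.3% of 18229 genes were: 3 higher (30.5% of genes) and 4 lower (27.8% of genes). *Stau2* had 130, 140, 143, 147 and 148 CPM in the inputs and 89.4, 58.2, 81.7, 64.9 and 94.2 CPM in the Synpo-coIPs (log2 fold change -0.85 ± 0.12, adjusted p = 4.9e-05). *Fxr2* varied more than in controls, with 19.0, 11.4, 11.8, 14.1 and 7.44 CPM in the inputs and 19.3, 33.2, 15.5, 37.0 and 16.1 CPM in the Synpo-coIPs. These groups overlapped, although each Synpo-coIP exceeded its own input (log2 fold change 0.95 ± 0.28, adjusted p = 0.00909). *Cpeb2* (log2 fold change 0.57, adjusted p = 0.000269) and *Cpeb3* (0.48, adjusted p = 0.00826) were higher, and *Stau1*, *Fmr1* and *Fxr1* were lower, with log2 fold changes of -0.33, -0.31 and -0.32. *Cpeb3* had 33.5, 17.8, 23.4, 24.2 and 22.6 CPM in the inputs and 34.7, 32.6, 32.5, 36.0 and 31.4 CPM in the Synpo-coIPs, so that 1 input lay within the Synpo-coIP range. Its adjusted p was 0.104 once the gene length trend was removed. Whether ECL altered the enrichment was tested as an interaction of lesion and fraction. No gene passed it in edgeR (0% of 19581; 434 had an unadjusted p under 0.05, 0 of them members; DESeq2 also called 0), and the largest difference among the members was 0.28 ± 0.18 for *Cpeb3*.

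In lysates labelled Synpo-/- the same antibody gave 2 called members, where 31.4% of 20892 genes were called: 1 higher (15% of genes) and 1 lower (16.4% of genes). *Stau2* had 154 and 161 CPM in the inputs and 104 and 89.6 CPM in the Synpo-coIPs (log2 fold change -0.73 ± 0.14, adjusted p = 0.002), and it was called in all 13 alternatives. *Cpeb2* had 20.6 and 24.6 CPM in the inputs and 36.1 and 28.5 CPM in the Synpo-coIPs (log2 fold change 0.48 ± 0.17, adjusted p = 0.0476), a call kept in 6 of 13 alternatives. *Fxr2* had 14.8 and 9.65 CPM in the inputs and 16.4 and 17.3 CPM in the Synpo-coIPs (log2 fold change 0.43 ± 0.21, adjusted p = 0.137). Both *Stau2* and *Cpeb2* therefore moved in these libraries in the direction they had in Synpo+/+ lysates.

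The difference in enrichment between Synpo+/+ control and Synpo-/- lysates was tested itself. The Synpo-/- libraries held 42886994 to 53682143 counted reads and those of Synpo+/+ controls 12888443 to 26730691. A batch difference between them cannot be told apart from genotype. No gene passed (0% of 20621 in edgeR; 1511 genes had an unadjusted p under 0.05, and 1 of these was a member; DESeq2 called 50 genes and 0 members). That member was *Stau1*, at -0.30 on the log2 scale with an interval of 2 SE on either side of -0.57 to -0.03 (adjusted p = 0.655). For *Fxr2* the difference was 0.49 with such an interval of -0.08 to 1.07, for *Stau2* -0.19 with an interval of -0.49 to 0.12, and for *Cpeb2* 0.11 with an interval of -0.26 to 0.48. That of *Pum2* was 0.32 (adjusted p = 0.743 in edgeR). In Synpo-/- lysates *Pum2* had a mean of 244 CPM in inputs and 217 CPM in Synpo-coIPs, and was not called (log2 fold change -0.20, adjusted p = 0.274). Over 23 alternatives the difference of *Fxr2* ranged from 0.15 to 0.76, and that of *Cpeb2* from -0.05 to 0.29, both without a call; the extremes came from leaving out single Synpo-/- libraries. The summed level of 7 neuronal markers was 4755 to 6062 CPM in Synpo-coIPs and 7702 to 9126 CPM in inputs of Synpo+/+ controls, and that of 10 microglial markers 650 to 1162 and 923 to 1497 CPM. That of 8 astrocyte markers was 22580 to 38580 CPM in these Synpo-coIPs and 18920 to 27120 CPM in these inputs. In Synpo-/- lysates the neuronal markers summed to 5168 to 5715 CPM in Synpo-coIPs and 7050 to 7608 CPM in inputs. The part of these cell types in the results was not tested.

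**Figure D3:**
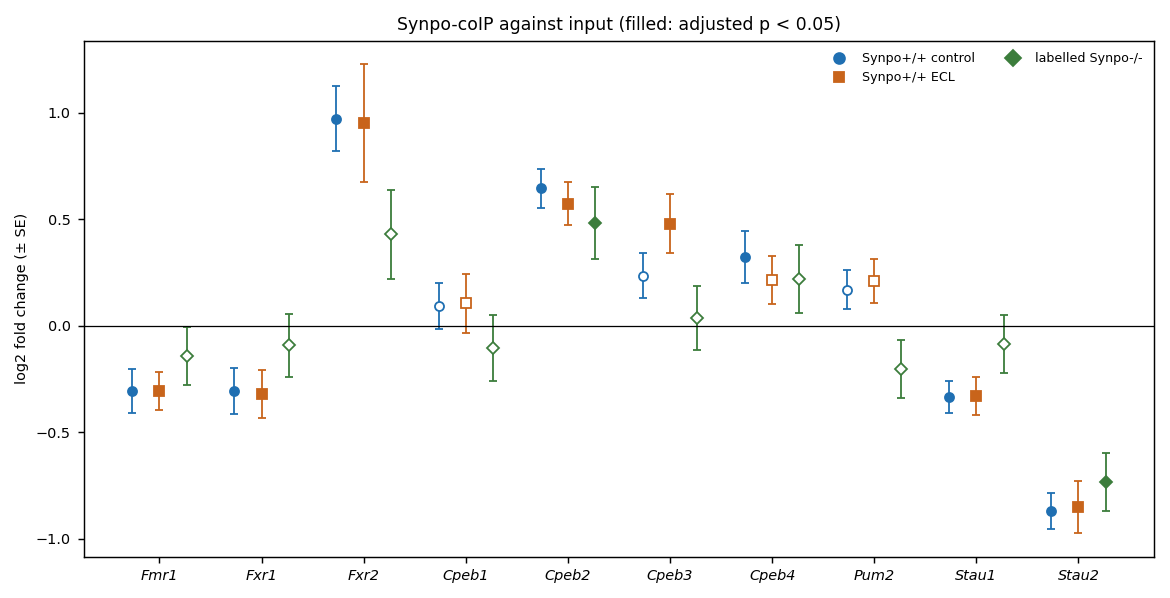
Log2 fold changes (± SE) of Synpo-coIP against input for the 10 genes in Synpo+/+ control, Synpo+/+ ECL and Synpo-/- labelled lysates; filled symbols have an adjusted p under 0.05. *Stau2* lies at -0.87, -0.85 and -0.73 and is filled in each comparison, and *Cpeb2* at 0.64, 0.57 and 0.48.

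Other genes of the same machinery were spread over both directions in the Synpo+/+ control Synpo-coIP, where, as given above, 29.6% of all genes were higher and 25.5% lower. Of 14 tested FMRP partners and cap-binding repressors, 4 were higher and 6 lower. *Eif4ebp2*, a repressor of the cap-binding protein eIF4E, was higher (log2 fold change 0.58), as was *Cyfip2*, an FMRP partner (0.47). *Eif4e* itself was lower (-1.26), and so were *Eif4ebp1* (-1.06) and *Eif4e2* (-0.85) of the same list. Of 20 Pumilio partners and deadenylases 8 were higher and 8 lower, with the scaffold *Cnot1* at 0.84 and the deadenylase subunit *Cnot7* at -0.87. Of 22 transport granule genes 4 were higher and 5 lower. The kinesin heavy chains *Kif5c* (0.88) and *Kif5a* (1.13) were among those higher, and *Elavl4* (-0.60) and *Purb* (-0.54) among those lower. Of 18 P-body and microRNA silencing genes 10 were higher and 1 lower: *Ago2* had a log2 fold change of 0.74, *Tnrc6b* 0.79 and *Ddx6*, a P-body helicase, -0.24. After ECL 12 of the 18 were higher and 3 lower. In Synpo-/- lysates 6 were higher, among them *Tnrc6c* (0.69) and *Tnrc6a* (0.56). There 3 were lower, namely *Ddx6* (-0.48) and the decapping genes *Edc3* (-0.56) and *Dcp1b* (-0.55). In the exon junction complex and nonsense-mediated decay list 7 of 13 were higher and 3 lower, and the lower ones were the exon junction core genes *Rbm8a* (-1.14), *Magoh* (-1.33) and *Magohb* (-1.47). In lysates labelled Synpo-/- *Upf1* (1.17) and *Smg6* (0.64) were higher as well, and *Rbm8a* (-0.97) and *Magoh* (-0.87) were lower. The medians of the 5 lists in Synpo+/+ controls, in the order given, were -0.15, -0.14, -0.01, 0.42 and 0.27, against 0.04 for all genes.

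The second question was how the regions differ. *Cpeb1*, *Cpeb3* and *Stau2* were lower in DG than in CA3 in Synpo-/- cultures with and without ECL, and *Cpeb2* was lower in Synpo-/- ECL and Synpo+/+ control cultures. No member passed the test as higher in any of the 4 comparisons. In bulk samples, fewer cells of a type and less RNA per cell cannot be told apart. In Synpo-/- control cultures 3 members were called, all lower in DG, where 25.5% of 21408 genes were called in either direction and 12.5% as lower. *Cpeb1*, which represses or activates translation with cytoplasmic polyadenylation, had 75.4 to 82.7 CPM (median 78.5, n = 6) in CA3 and 40.2 to 54.3 CPM (median 48.6, n = 7) in DG. The groups were separated by a wide gap (log2 fold change -0.61 ± 0.07, adjusted p = 3.3e-06). *Stau2* had 179 to 211 CPM (median 204) in CA3 and 114 to 153 CPM (median 147) in DG, without overlap (log2 fold change -0.43 ± 0.08, adjusted p = 0.000288). *Cpeb3* had 61.0 to 72.0 CPM (median 64.8) in CA3 and 47.5 to 59.99 CPM (median 53.0) in DG (log2 fold change -0.22 ± 0.07, adjusted p = 0.0333), and *Cpeb2* missed the threshold (-0.24 ± 0.09, adjusted p = 0.0525). These CPM were scaled over all 39 regional libraries, and the fold changes over the groups compared. With all groups in one fit the members' median log2 fold change was -0.31, against -0.20 here, and 5 members were called. Without CA3 control replicate 1 the log2 fold changes were -0.62 for *Cpeb1* (adjusted p = 1e-05), -0.43 for *Stau2* (adjusted p = 0.000993), -0.24 for *Cpeb3* (adjusted p = 0.0339) and -0.24 for *Cpeb2* (adjusted p = 0.0719), with 3 members and 21.7% of genes called.

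After ECL, 4 members were called in Synpo-/- cultures, all lower in DG (13.6% of 22767 genes called in either direction, 6.24% as lower). *Cpeb1* had 37.5, 44.9, 43.3 and 47.1 CPM in DG, below the CA3 range of 63.0 to 75.9 CPM (median 68.5; log2 fold change -0.65 ± 0.10, adjusted p = 0.000408). *Cpeb3* had 37.4, 42.1, 42.9 and 43.3 CPM in DG and 53.3 to 72.5 CPM (median 59.9) in CA3 (log2 fold change -0.55 ± 0.10, adjusted p = 0.00243). *Stau2* (log2 fold change -0.53, adjusted p = 0.00843) and *Cpeb2* (-0.46, adjusted p = 0.0079) were lower too. The DG and CA3 ranges of these called genes did not overlap, which was not examined over all genes. All 4 genes were called in each of 12 alternatives.

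In Synpo+/+ control cultures, with 2 CA3 libraries, 1 member was called, as lower in DG (5.39% of 25656 genes called in either direction, 2.75% as lower). *Cpeb2* had 69.3 and 62.9 CPM in CA3 and 44.2, 47.0, 45.3 and 47.4 CPM in DG (log2 fold change -0.51 ± 0.13, adjusted p = 0.0318). The call was kept in 7 of 14 alternatives and lost when either CA3 library was left out. *Cpeb1* had 61.7 and 56.9 CPM in CA3 and 41.0, 43.4, 50.2 and 49.3 CPM in DG, a difference that missed the threshold (log2 fold change -0.35 ± 0.14, adjusted p = 0.191). In Synpo+/+ ECL cultures 0 members were called with all 7 DG libraries (2.05% of 24029 genes called; 4 members had an unadjusted p under 0.05, and DESeq2 called 1). Without the DG library that goes against its label, 4 members and 19.8% of genes were called: *Cpeb1* (log2 fold change -0.66, adjusted p = 8.3e-05), *Stau2* (-0.58, adjusted p = 0.000405), *Cpeb3* (-0.48, adjusted p = 0.00365) and *Cpeb2* (-0.45, adjusted p = 0.00842). That library held *Cpeb1* at 77.6 CPM, against 38.2 to 45.1 CPM in the other 6, and *Stau2* at 225 CPM, against 129 to 164 CPM. Neuronal markers moved with region: their summed level was 6805 to 8555 CPM in CA3 and 3415 to 5206 CPM in DG of Synpo-/- controls, where 4 of 7 markers were lower in DG. Their part in the difference was not tested.

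**Figure D4:**
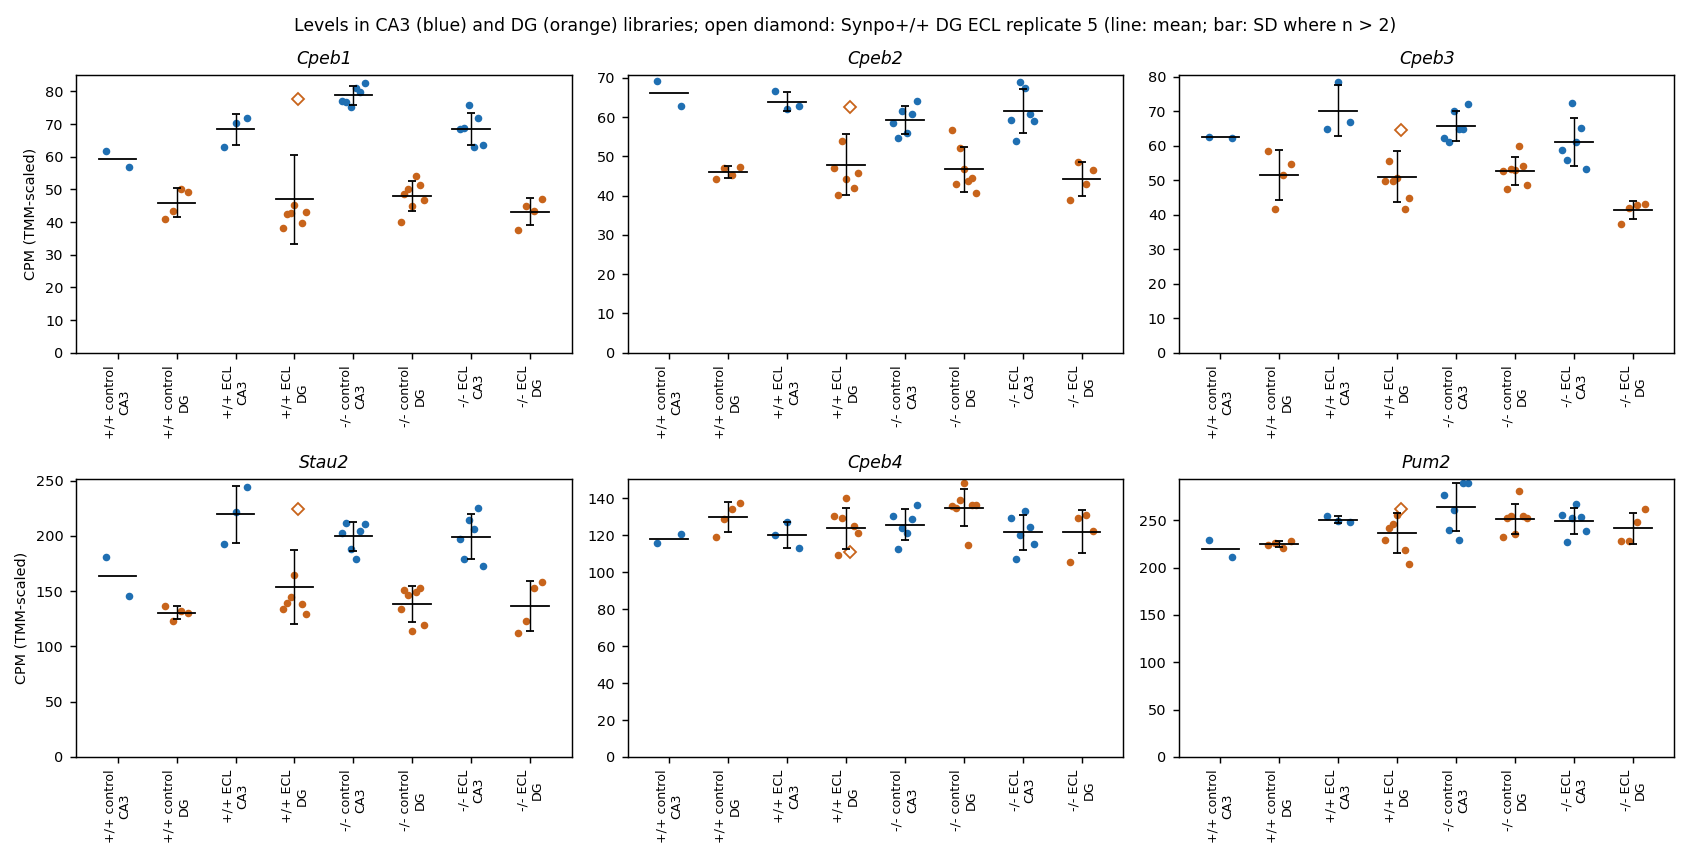
CPM of 6 genes in the 39 regional libraries (CA3 blue, DG orange; -/- denotes the Synpo-/- label); points are libraries, lines means, bars SD where n is above 2, and the open diamond is Synpo+/+ DG ECL replicate 5. *Cpeb1* lies at 75.4 to 82.7 CPM in CA3 and 40.2 to 54.3 CPM in DG of Synpo-/- controls, and the diamond lies with the CA3 libraries for *Cpeb1* and *Stau2*.

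*Cpeb4* and *Pum2* did not pass the test between regions in any of the 4 comparisons. In Synpo-/- controls *Cpeb4* had 112 to 137 CPM (median 127) in CA3 and 115 to 148 CPM (median 136) in DG (log2 fold change 0.21 ± 0.08, adjusted p = 0.0516). *Pum2* differed by 0.03 ± 0.07 on the log2 scale, although its mean CPM, scaled over all regional libraries, was 264 in CA3 and 252 in DG. Without CA3 control replicate 1 *Cpeb4* differed by 0.22 (adjusted p = 0.0775) and *Pum2* by 0.04. In the same comparison, where 13.1% of all genes were higher and 12.5% lower, 6 of 20 Pumilio partners and deadenylases were higher and 1 lower, led by the antiproliferative cofactor *Btg1* (1.35) and the deadenylase *Cnot6* (0.69). Both CYFIP genes were lower in DG, *Cyfip2* by -0.58 and *Cyfip1* by -0.59 on the log2 scale, among 3 lower and 0 higher of 14 FMRP partners. Of 23 transport granule genes 6 were higher and 4 lower, and of 18 P-body genes 6 were higher and 0 lower. Without CA3 control replicate 1 the called genes in either direction numbered 6 (Pumilio), 2 (FMRP), 7 (transport) and 5 (P-body).

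The third question was whether denervation by ECL changed these messages. In Synpo+/+ DG 1 member was called, as higher, where 12.2% of 23720 genes were called in either direction and 7.86% as higher. *Stau1* had 39.2, 31.7, 37.6 and 31.3 CPM in controls and 40.0 to 56.0 CPM (median 44.1, n = 7) after ECL, without overlap (log2 fold change 0.38 ± 0.12, adjusted p = 0.0433). Without ECL replicate 5 its log2 fold change was 0.32 (adjusted p = 0.0468). The call was kept in 6 of 13 alternatives and lost without control replicate 2, 3 or 4, with an adjusted p up to 0.147. *Fxr2* had 7.44, 7.65, 5.43 and 6.58 CPM in controls and 7.09 to 13.1 CPM (median 9.02) after ECL, and did not pass (log2 fold change 0.45 ± 0.17, adjusted p = 0.0807; without ECL replicate 5, 0.34 and 0.134).

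In Synpo+/+ CA3 0 members were called by edgeR (1.78% of 22340 genes; 2 members had an unadjusted p under 0.05, and DESeq2 called 1). *Fxr2* had 5.73 and 6.05 CPM in the 2 controls and 12.7, 10.7 and 10.5 CPM after ECL. The groups were apart, but the adjusted p was 0.0572 (log2 fold change 0.84 ± 0.19); in DESeq2 it was 0.0231. In CA3 libraries labelled Synpo-/- the same gene had 7.72 to 14.5 CPM (median 10.7) in controls and 6.90 to 9.96 CPM (median 8.55) after ECL (log2 fold change -0.34 ± 0.15, adjusted p = 0.662). No member was called there by edgeR or DESeq2 (0.077% of 20772 genes; 2 members had an unadjusted p under 0.05). Without control replicate 1 the log2 fold change of *Fxr2* was -0.35 (adjusted p = 0.774), and 0 members were called. The interaction of genotype and lesion in CA3 called 0 of 26821 genes in edgeR (0%; 4589 had an unadjusted p under 0.05, and DESeq2 called 313), with *Fxr2* at 1.20 ± 0.27 (adjusted p = 0.118, and 0.0182 in DESeq2; 1.20 and 0.181 in edgeR without Synpo-/- control replicate 1).

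In DG libraries labelled Synpo-/- *Cpeb3*, a repressor of AMPA receptor subunit mRNAs, fell after ECL, the 1 member called (8.53% of 23310 genes called in either direction, 3.36% as lower). It had 47.5 to 59.99 CPM (median 53.0, n = 7) in controls and 37.4, 42.1, 42.9 and 43.3 CPM after ECL, without overlap (log2 fold change -0.39 ± 0.09, adjusted p = 0.0105). In Synpo+/+ DG its log2 fold change was -0.05 ± 0.12 (adjusted p = 0.801), and the difference between genotypes, 0.38 ± 0.15, did not pass (adjusted p = 0.478; 0.00381% of 26245 genes called). Without Synpo+/+ ECL replicate 5 these values were -0.12 (adjusted p = 0.43) and 0.32 (adjusted p = 0.595). In Synpo-/- DG the summed level of 8 astrocyte markers was 4778 to 5676 CPM in controls and 7406 to 9557 CPM after ECL, with 7 of 8 markers higher. That of 10 microglial markers was 532 to 1162 and 1163 to 1611 CPM, with 8 of 10 higher, and their part in the *Cpeb3* result was not tested. In whole-culture input of Synpo+/+ lysates 0 members were called by edgeR (5.61% of 17951 genes; 1 member had an unadjusted p under 0.05, and DESeq2 called 1). *Stau2* had 181, 164, 175, 154 and 153 CPM in control inputs and 130, 140, 143, 147 and 148 CPM after ECL (log2 fold change -0.23 ± 0.07, adjusted p = 0.0803; in DESeq2 0.0357). In Synpo+/+ regional libraries edgeR did not call it, and its median was higher after ECL. That median was 164 CPM in control and 221 CPM in ECL CA3, and 131 and 139 CPM in DG with ECL replicate 5 included. In the inputs neuronal markers summed to 7702 to 9126 CPM in controls and 6604 to 8015 CPM after ECL. Astrocyte markers summed to 18920 to 27120 and 23910 to 36020 CPM. Their part in the *Stau2* result was not tested.

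**Figure D5:**
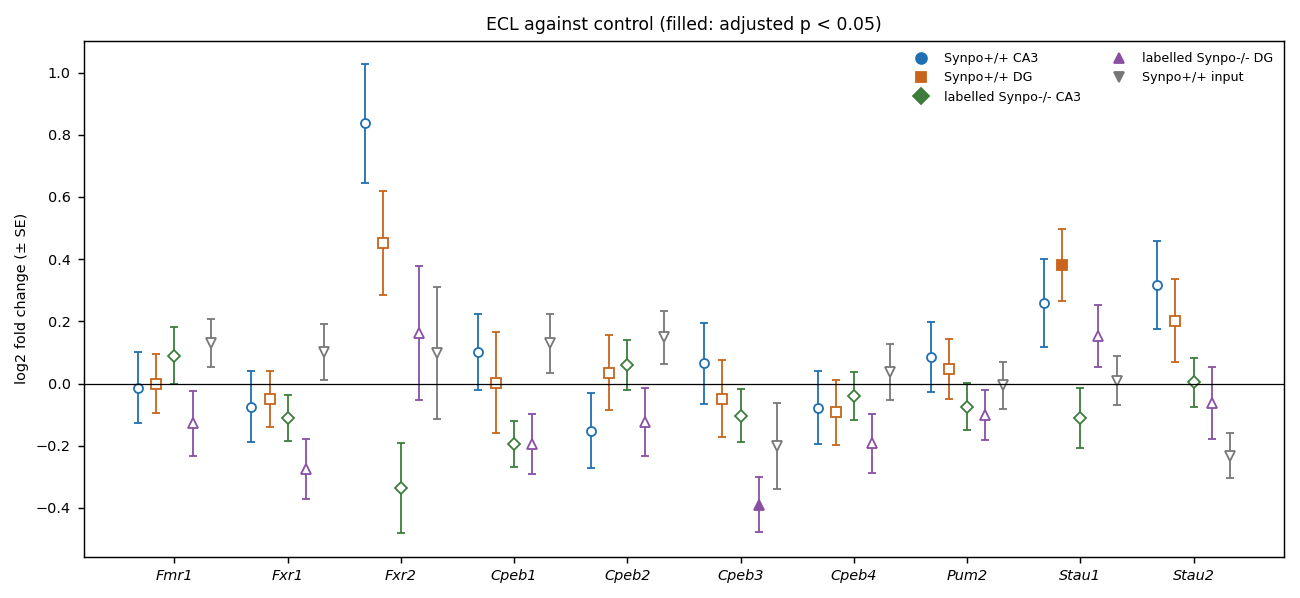
Log2 fold changes (± SE) of ECL against control for the 10 genes in 4 regional comparisons and in Synpo+/+ input; filled symbols have an adjusted p under 0.05. The filled symbols are *Stau1* in Synpo+/+ DG at 0.38 and *Cpeb3* in Synpo-/- labelled DG at -0.39, and *Fxr2* in Synpo+/+ CA3 lies at 0.84 with an open symbol.

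Glial markers moved with the lesion in DG. The summed level of 10 microglial markers was 444 to 609 CPM in Synpo+/+ DG controls and 1141 to 1476 CPM after ECL, with 10 of 10 markers higher, and 6 of 8 astrocyte markers were higher. Their part in the *Stau1* result was not tested. Of the related lists in Synpo+/+ DG, 2 of 14 FMRP partners and cap-binding repressors were higher (*Eif4e2*, a cap-binding repressor, at 0.52 and *Cyfip1* at 0.59), and so were 2 of 20 Pumilio partners and deadenylases (*Btg2* at 1.60 and *Cnot8* at 0.48) and 2 of 13 exon junction and decay genes (*Eif4a3* at 0.60 and *Rbm8a* at 0.37). None of these lists had a lower gene there, and transport granule and P-body genes had 0 called in either direction. Without ECL replicate 5 the 5 lists had 2, 2, 2, 1 and 0 called genes, in the order FMRP, Pumilio, exon junction, transport and P-body. In Synpo-/- labelled DG *Btg2*, an antiproliferative cofactor of the deadenylases, was higher by 2.14 on the log2 scale. *Tob1* (0.42) and *Upf3a* (0.44) were higher there too, whereas *Nufip2* (-0.34), *Pura* (-0.30), *Ddx6* (-0.32) and *Smg1* (-0.28) were lower. Of all genes tested in that comparison 5.17% were higher and 3.36% lower.

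Between genotypes, edgeR called 0 members in all 4 comparisons. A batch difference, which the labels do not give, cannot be told apart from genotype in them. The shares of all genes called were 0.0166% in DG control, 0.00413% in CA3 control, 0.0166% in DG ECL and 0.00891% in CA3 ECL. Members with an unadjusted p under 0.05 numbered 0, 3, 1 and 1, and DESeq2 called 0, 2, 0 and 0. Without Synpo+/+ DG ECL replicate 5 edgeR called 0 members in DG ECL (0.0375% of genes), and without Synpo-/- CA3 control replicate 1 it called 0 in CA3 control. In control CA3 *Fxr2* had 5.73 and 6.05 CPM in Synpo+/+ and 7.72 to 14.5 CPM (median 10.7) in Synpo-/- libraries (log2 fold change 0.80 ± 0.22, adjusted p = 0.131; without Synpo-/- replicate 1, 0.79 and 0.219). *Cpeb1* had 61.7 and 56.9 CPM in Synpo+/+ and 75.4 to 82.7 CPM (median 78.5) in Synpo-/- libraries of that region (0.35 ± 0.11, adjusted p = 0.161; without Synpo-/- replicate 1, 0.34 and 0.272). These values and those of the lesion comparison in CA3 rest on the same 2 Synpo+/+ control libraries.

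For each member, the protein-coding gene whose mean log2 CPM was most alike over the 8 regional groups was found among 19068 genes. It was *Aak1* for *Cpeb1* (Pearson's r = 0.995), *Vps50* for *Cpeb2* (0.999), *Lmbrd2* for *Cpeb3* (0.998), *Camk2n1* for *Cpeb4* (0.987) and *Zfp91* for *Stau2* (0.997). For the others it was *Tmem106b* for *Fmr1* (0.984), *Phf6* for *Fxr1* (0.95), *Vps72* for *Fxr2* (0.991), *Fundc1* for *Pum2* (0.98) and *Tbl3* for *Stau1* (0.993). Without Synpo+/+ DG ECL replicate 5 the gene was another for *Cpeb4* (*Mga*, 0.976) and *Stau1* (*Gtf2i*, 0.994), and the one named here for the other 8 members. These are descriptions over 8 points that share libraries and scaling, picked as the highest of many.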

How the data were processed

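RNA-seq counts of 63 libraries were analysed. Per the labels and the study's methods, the authors trimmed reads (cutadapt 3.5), mapped them to mm10 (STAR 2.7.8a) and assigned them to GENCODE M25 genes (featureCounts 2.0.1), without strand; versions for the 4 libraries labelled Synpo-/- in the coIP experiment are not given in the sources used here. The deposited values are raw read counts per gene. *Fxr1*, *Cpeb2* and *Cpeb3* overlap antisense genes by 178, 137 and 116 exonic bases, and *Fmr1* overlaps a gene on its own strand by 72, so these reads cannot be told apart.

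Counts were tested with edgeR 4.0.16 (R 4.3.3; filterByExpr, TMM, quasi-likelihood F-test, only the groups compared, no block) over all genes, with Benjamini-Hochberg adjustment and a threshold of 0.05. All 10 members passed the filter in all 20 comparisons. Whether ranges overlap was examined for the members only, without a share over all genes. CPM used TMM factors computed within each experiment, and fold changes used those of the groups compared, so that CPM and fold changes can differ. DESeq2 1.42.0, RLE factors, no filter, gene length and GC trends removed, all groups in one fit, a replicate block, a mean normalized count over 300 and leaving out libraries were the alternatives. Replicates of 1 group are separate cultures or lysates per the labels. Input and Synpo-coIP of 1 number were taken to share a lysate, which the labels do not state. The correlation of their deviations from the group means was 0.189 to 0.442 in Synpo+/+ control, 0.105 to 0.381 in Synpo+/+ ECL and 0.0456 in Synpo-/-. For Synpo+/+ control Synpo-coIP replicates 2 and 3 and ECL replicate 2, an input of another number correlated more. The 2 Synpo-/- lysates were paired by the preparation number in their titles, with which the biological replicate numbers of the inputs disagree. 3′UTRs were read from GRCm38.p6, whose chromosome lengths held every annotated exon.

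Named genes were the 10 members, *Synpo*, and up to 3 called genes per direction of each related list. The members and lists were chosen with earlier results of these data known. Regional replicate numbers were not taken as pairs.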

Additional observations from a re-analysis of the deposited data

Results flagged for a closer look

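Within groups of 4 to 10 libraries, 100 combinations of gene and group were examined for a single library far from the rest, a test that flags about 1 in 20 groups by chance, and 6 stood out. Both *Cpeb1* (77.6 CPM, the other 6 libraries 38.2 to 45.1 CPM) and *Stau2* (225 CPM, the others 129 to 164 CPM) were far above their group in Synpo+/+ DG ECL replicate 5, the library whose markers go against its label. *Cpeb4* was at 48.0 CPM in Synpo+/+ control Synpo-coIP replicate 2, against 29.9 to 35.1 CPM in the others. *Fxr1* was at 64.6 CPM in Synpo+/+ control input replicate 1, against 49.2 to 53.3 CPM. In Synpo-/- DG control, *Fxr1* was at 102 CPM in replicate 2 (the others 79.5 to 88.6 CPM) and *Cpeb4* at 115 CPM in replicate 5 (the others 135 to 148 CPM).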

How the results depend on the processing

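Of the members' log2 fold changes under the alternatives, 2606 kept their direction and side of the threshold, 44 lost the threshold and 40 gained it. The sign changed without a call in either fit for 210, and 0 reversed a called value. The cause was not tested. Counts of called members moved as follows. Synpo-coIP against input, Synpo+/+ control (7): 6 to 7 in other settings and 5 to 7 without single libraries. Synpo+/+ ECL (7): 6 to 8 and 6 to 7. Synpo-/- (2): 1 with RLE factors and with the length trend removed, 1 to 2 without single libraries. ECL in Synpo+/+ input (0): 1 with DESeq2 and with length and GC trends removed. ECL in Synpo+/+ CA3 (0): 1 with DESeq2, without the filter and with the replicate block. ECL in Synpo+/+ DG (1): 0 with RLE factors, without the filter and with either trend removal, 0 to 1 without single libraries. ECL in Synpo-/- DG (1): 2 with DESeq2 and 0 with the replicate block (*Cpeb3* adjusted p = 0.0902). Genotype by lesion in CA3 (0): 1 with DESeq2 and without the filter. DG against CA3 in Synpo+/+ controls (1): 0 without the filter and with the replicate block, 0 to 1 without single libraries. In Synpo-/- controls (3): 2 to 5 in other settings, the 5 being with the length trend removed, with all groups in one fit and with the block. In Synpo+/+ ECL (0): 1 with DESeq2, 4 with all groups in one fit and with the block, 0 to 4 without single libraries. Synpo-/- against Synpo+/+ in control CA3 (0): 2 with DESeq2, 1 without the filter and with the block. Removing length and GC trends moved *Fmr1* in the Synpo+/+ control Synpo-coIP from -0.31 to -0.62 and called it in Synpo-/- lysates (-0.74, adjusted p = 0.00115). In the coIP comparisons the replicate block alone changed no member's call. The regional numbers share no culture in the labels, and same-numbered libraries did not deviate together throughout. Leaving out Synpo-/- CA3 control replicate 1, chosen after the data were seen, changed no member's call in its 4 comparisons. In the regional libraries depth limits *Fxr2* most, the member with the lowest level there.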
